A study of Mus musculus with 32 samples.

Results

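The NF-kB transcription factor subunits and the proteins that restrain them were measured as RNA in B cells with and without ELOF1, an elongation factor of RNA polymerase II. The set holds 10 genes, taken by gene symbol, out of 43345 mouse genes in the count tables. They are the subunit genes Nfkb1, Nfkb2, Rel, Rela and Relb, the cytoplasmic inhibitor genes Nfkbia and Nfkbie, the nuclear inhibitor-like genes Nfkbid and Bcl3, and Tnfaip3, a brake on the signalling that activates the subunits. All 10 were found by symbol, and all 10 passed the filter on low counts in both cell systems. The lowest count of any of them in any library was 201 reads.

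NF-kB subunits act as dimers. In resting cells they are held in the cytoplasm by inhibitor proteins, and an activated kinase complex marks those inhibitors for destruction, which frees the dimers to enter the nucleus (the canonical route). In the non-canonical route, signals such as CD40 stabilise the kinase encoded by Map3k14, which leads to processing of the Nfkb2 precursor into a mature subunit that pairs with the product of Relb. Several inhibitor genes are themselves NF-kB targets, which makes them feedback brakes, and in B cells the pathway is engaged by CD40, by the antigen receptor and by LPS.

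The RNA came from 32 libraries in 2 mouse systems, each stimulated so that the cells switch their antibody isotype. CH12F3 is a B lymphoma line, and all of its 16 libraries came from an Elof1 knockout treated with anti-CD40, IL-4 and TGF-beta. The knockout carried either an empty vector (called vector, ELOF1-deficient) or an ELOF1 construct (called ELOF1, proficient), and each arm had 4 libraries from day 1.5, 2 from day 3 and 2 from day 7. Primary splenic B cells were treated with IL-4 and LPS. They carried a conditional Elof1 knockout (cKO, deficient) or were wild type (WT, proficient), and either genotype had 5 libraries from day 2.5 and 3 from day 3.5. The proficient CH12F3 cells are thus a rescued knockout and not an unedited line. Whether that line is 1 clone, which Cre deletes Elof1 in the spleen cells, and the age of the mice were not stated in the sources used. Nothing says that replicates were separate cultures or animals, so p-values measure the spread between these libraries, which may be technical.

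The libraries held 7112130 to 16359477 mouse counts. Elof1 was lower in every deficient library than in every proficient library of the same system and day, at 0.966 to 5.49 against 139.6 to 681 CPM (counts scaled to the mouse library size with TMM) in CH12F3 cells and at 1.27 to 7.65 against 11.0 to 55.1 CPM in spleen cells. Library names fall into 2 runs of numbers, called the first (8 libraries) and the second library series (24 libraries). CH12F3 day 1.5 and spleen day 2.5 hold both series, and all other groups come from the second. In spleen cells at day 2.5 both first-series pairs differ from each other: replicate 5 of either genotype had the lowest CPM of its group for Nfkb1, Rela, Nfkbia, Nfkbie, Nfkbid, Bcl3 and Tnfaip3. The summed CPM of 8 B cell markers was 1117 to 1758 in CH12F3 and 3208 to 4974 in spleen libraries. In spleen cells the T cell genes Cd3e, Cd3d, Cd3g, Cd4 and Cd8a reached at most 15 counts in any library, while Lck of the same list was at 114 to 430 counts and Gzmb at up to 53. The summed erythroid markers were at most 0.976 CPM in spleen libraries.

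NF-kB dimers bind DNA at the kappaB consensus, and the start regions of the members were searched for it. Windows from 250 bases before to 50 after a start site were available for 8 members in the RefSeq promoter table of GRCm38.p6, with 13 windows in all, and Nfkb1 and Relb had none there. The kappaB consensus, searched on both strands, was present in 7 of these 8 members and in 9 of the 13 windows. The same search found it in 9.55% of 27018 genes with a window and in 8.46% of 32841 windows of the same length. Overlapping matches were counted separately. For each of the 3 members whose level differed by genotype in the tests below, 1 window is printed. It runs 5′ to 3′ in the direction of the gene, with the matches in capitals.
Nfkb2, chr19:46304487-46304786, plus strand: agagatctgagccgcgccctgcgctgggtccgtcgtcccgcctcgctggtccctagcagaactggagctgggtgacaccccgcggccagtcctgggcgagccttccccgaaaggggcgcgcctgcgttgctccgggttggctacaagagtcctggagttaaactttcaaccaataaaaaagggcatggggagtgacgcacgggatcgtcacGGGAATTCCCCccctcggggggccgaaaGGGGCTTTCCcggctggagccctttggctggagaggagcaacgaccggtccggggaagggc
Nfkbid, chr7:30422156-30422455, plus strand: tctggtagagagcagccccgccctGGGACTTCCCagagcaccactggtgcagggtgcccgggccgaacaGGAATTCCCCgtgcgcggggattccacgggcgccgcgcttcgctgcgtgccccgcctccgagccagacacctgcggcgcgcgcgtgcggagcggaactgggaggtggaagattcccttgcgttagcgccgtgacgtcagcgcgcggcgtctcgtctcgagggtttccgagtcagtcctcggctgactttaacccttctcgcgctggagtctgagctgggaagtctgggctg
Nfkbie, chr17:45555450-45555749, plus strand: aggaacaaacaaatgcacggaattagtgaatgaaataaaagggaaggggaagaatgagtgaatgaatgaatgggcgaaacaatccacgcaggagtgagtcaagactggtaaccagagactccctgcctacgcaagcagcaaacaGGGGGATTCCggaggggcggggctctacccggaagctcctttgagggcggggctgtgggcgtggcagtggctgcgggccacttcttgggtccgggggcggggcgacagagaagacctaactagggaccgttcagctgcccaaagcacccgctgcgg
The printed Nfkb2 window held 3 matches, of which a pair overlapped into a single run of capitals. The other 2 windows of Nfkb2 held 2 and 1. These windows overlap, and 1 match lies in both and was counted in each. Of the Nfkbid windows only the one printed held a match, 2 in all, and the Nfkbie window held 1. The Nfkbid windows at 30421481 to 30421780 and 30423025 to 30423324 held 0 and are not printed. The former spans the annotated start of the gene (30421732), and the printed window lies downstream of that start. Tnfaip3 and Rel held 2 matches each, Nfkbia and Bcl3 1 each, and the Rela window had none of these letters. A match describes the sequence and shows no binding.

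Compared per kilobase of counted gene length, the members spanned a wide range in both systems. In CH12F3 cells Nfkbia, the best-known feedback inhibitor, stood above all the others at 342 ± 53.9 CPM per kb (SD, n = 16 libraries), and its lowest library (259) lay above the highest of any other member (126). Nfkbie (101 ± 14.8), Nfkb1 (99.8 ± 15.6), Nfkb2 (92.5 ± 15.4) and Nfkbid (82.2 ± 22.5) followed, and neighbours among these 4 differed by less than their SD. Tnfaip3 (43.8 ± 4.22), Rel (35.5 ± 5.94), Rela (26.2 ± 3.06) and Relb (22.9 ± 1.08) came next, each with a range that overlapped its neighbour's, and Bcl3 was lowest at 14.96 ± 3.26, with every library below every Relb library.

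In spleen cells the order was another one. Nfkb1, which encodes the precursor of the subunit that pairs with Rel and Rela, led at 255 ± 28.5 CPM per kb, and its lowest library (192) exceeded the highest of any other member (124). Nfkbia (99.6 ± 15.1) and Nfkb2 (95.5 ± 13.0) were next and overlapped. Bcl3 (47.9 ± 15.8), Rel (42.8 ± 8.89), Rela (42.0 ± 8.65), Nfkbie (40.2 ± 9.83) and Tnfaip3 (37.7 ± 4.73) formed a group within each other's spread, on average above Relb (19.7 ± 2.94) and Nfkbid (15.4 ± 5.12), whose ranges overlapped. Nfkbid was thus the lowest member in spleen cells and the fifth in CH12F3 cells, and Bcl3 was the lowest in CH12F3 cells and the fourth in spleen cells. The tables were scaled separately, so these are values side by side and not a test. Each member lay above at least 68.1% of the genes tested in its system, and in bulk RNA fewer expressing cells and less RNA per cell cannot be told apart.

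**Figure D1:**
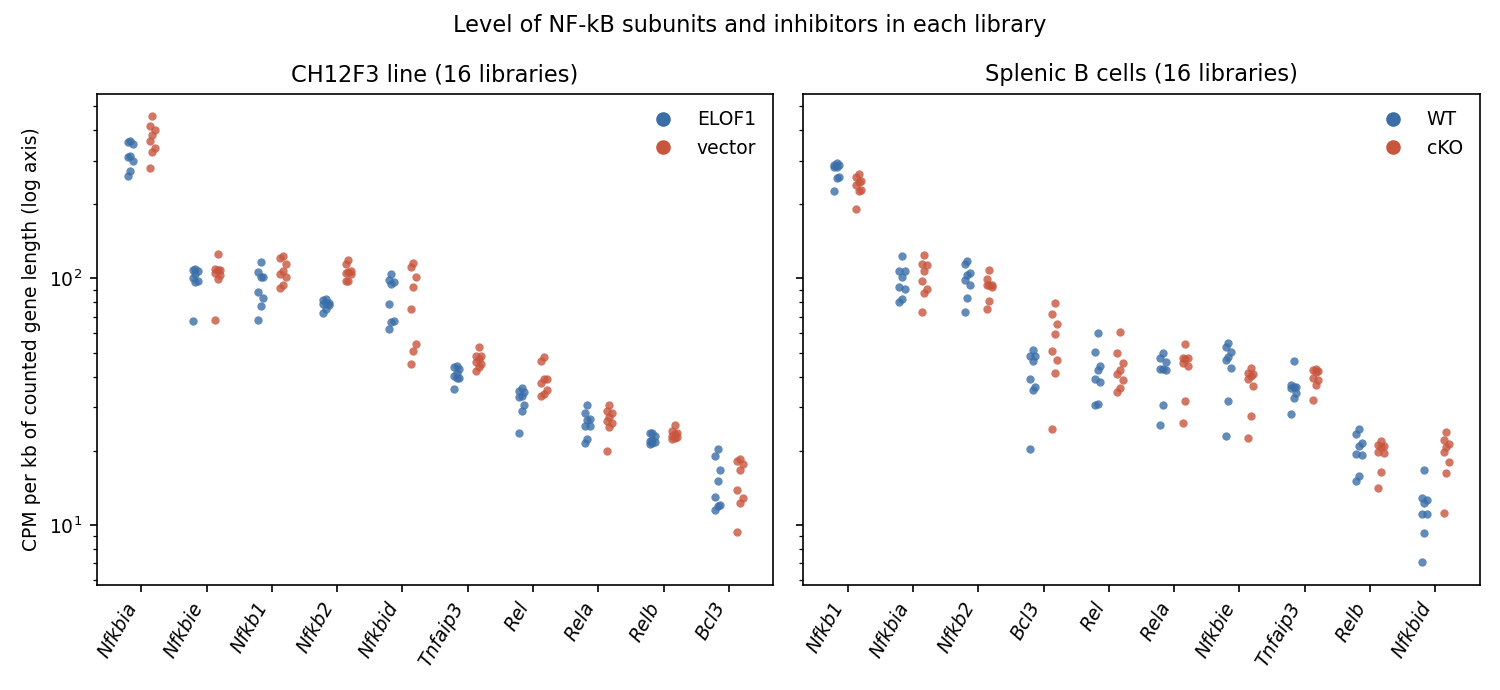
CPM per kb of counted gene length (log axis) of the 10 members in each of the 16 CH12F3 (left) and 16 spleen libraries (right), 1 point per library, blue for ELOF1-proficient and red for ELOF1-deficient, ordered by mean. Nfkbia leads in CH12F3 cells at 342 and Nfkb1 in spleen cells at 255 CPM per kb on average.

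In CH12F3 cells the loss of ELOF1 went with more Nfkb2, the precursor gene of the non-canonical route (chromosome 19, 46304737 to 46312090, plus strand, mm10, ENSMUSG00000025225). At day 1.5 the 4 vector libraries were at 342, 347, 376 and 391 CPM and the 4 ELOF1 libraries at 238, 248, 257 and 270.0 CPM. All vector libraries were above all ELOF1 libraries, in both library series. Nfkb2 rose by a log2 fold change of 0.52 ± 0.06 (SE; edgeR quasi-likelihood test, Benjamini-Hochberg adjusted p = 0.0022). It was the 1 member of 10 to pass at day 1.5, where 1.15% of 14201 genes passed.

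The same separation was present later in culture with 2 libraries a group. At day 3 Nfkb2 was at 349 and 322 CPM in vector and at 260.2 and 261 CPM in ELOF1 libraries. At day 7 it was at 353 and 320.0 CPM in vector and at 262 and 272 CPM in ELOF1 libraries. The groups did not overlap on either day, but the differences of 0.36 ± 0.09 and 0.33 ± 0.09 did not pass over all genes in edgeR (adjusted p = 0.83 and 0.47), where 0.00704% and 0.0352% of genes passed. No member passed on those days in edgeR, and 1 of 10 (Nfkb2) had an unadjusted p under 0.05 on each. DESeq2 called Nfkb2 on both days (adjusted p = 0.016 and 0.038). Averaged over the 3 days the effect was 0.41 ± 0.05 (edgeR adjusted p = 0.00054), in a comparison where 2.80% of genes passed.

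The Nfkb2 call kept its side of the threshold when any 1 library was left out, in 8 of 8 fits at day 1.5 (0.51 to 0.53) and 16 of 16 for the mean of days (0.38 to 0.43). It was lost within either library series alone, at 0.48 (edgeR adjusted p = 0.31) in the first and 0.54 (0.91) in the second, each with 2 libraries a group. It was also lost when libraries were scaled to the fly RNA added per cell, at 0.44 (adjusted p = 0.51) for day 1.5 and 0.27 (0.41) for the mean of days. That scaling moved the median of all genes from 0.01 to -0.08 at day 1.5 and to -0.13 for the mean of days. Nfkb2 shares 4 exonic bases with Psd on the opposite strand, a gene with 265 counts over all CH12F3 libraries.

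The other subunit genes showed smaller differences. Rel encodes the subunit most tied to B cell proliferation. Its 4 vector libraries at day 1.5 were at 134.6, 109.6, 93.8 and 129 CPM and its 4 ELOF1 libraries at 100.2, 66.1, 96.9 and 98.1 CPM. One vector library fell among the ELOF1 libraries, and 1 ELOF1 library (replicate 2) lay well below the rest. The difference was 0.37 ± 0.14 (adjusted p = 0.25). Nfkb1 was at 450.1, 438, 510.1 and 589 CPM in vector and at 323, 368, 420.4 and 485 CPM in ELOF1 libraries, with 0.32 ± 0.09 (adjusted p = 0.12). Within each library series every vector library was above every ELOF1 library for Nfkb1, and the groups overlapped only across series. Rela and Relb, which encode the transactivating partners of the canonical and non-canonical dimers, ranged from 54.2 to 79.2 CPM and from 85.6 to 99.2 CPM over the 8 day 1.5 libraries. Their differences of 0.10 ± 0.09 and 0.07 ± 0.07 were about the size of their SE.

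Among the brakes, Tnfaip3, which encodes a ubiquitin-editing enzyme that shuts down receptor signalling, separated the genotypes at day 1.5. Its vector libraries were at 349.8, 332.5, 349.1 and 381 CPM and its ELOF1 libraries at 286, 257, 299 and 309 CPM. No library overlapped, and the difference of 0.30 ± 0.07 fell short of the threshold in edgeR (adjusted p = 0.067) and passed in DESeq2 (0.0058). Nfkbia was at 568.2, 632, 652 and 719 CPM in vector and at 492.8, 569, 488 and 555 CPM in ELOF1 libraries, with 1 pair of libraries out of order and a difference of 0.29 ± 0.10 (adjusted p = 0.20). Nfkbie (0.09 ± 0.13) and Bcl3 (0.16 ± 0.14) differed by about their SE.

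Nfkbid, which encodes a nuclear inhibitor-like protein, differed between library series. In the first series its vector libraries at day 1.5 were at 119 and 106 CPM and its ELOF1 libraries at 157 and 156 CPM, so both vector libraries were lower. In the second series the vector libraries were at 262 and 238 CPM and the ELOF1 libraries at 244 and 227.01 CPM. The pooled difference was -0.19 ± 0.13 (adjusted p = 0.61), and the values by series were -0.50 (adjusted p = 0.28) and 0.08 (0.97), with opposite signs.

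Same-numbered CH12F3 libraries of the 2 genotypes deviated together, so each comparison was also fitted with the replicate number as a block. With the replicate block 5 members passed at day 1.5, where 8.60% of genes passed. Nfkb1 (0.32, adjusted p = 0.0031), Rel (0.37, 0.018), Nfkbia (0.29, 0.0094) and Tnfaip3 (0.30, 0.0089) joined Nfkb2 (0.52, 6.1e-05), all higher in vector cells. For the mean of days the same 5 passed with the block, at 0.19, 0.27, 0.20, 0.16 and 0.41 in the same order (adjusted p = 0.01, 0.015, 0.0089, 0.042 and 2.3e-05), where 13.2% of genes passed. With the block, none of the 10 members passed at day 3 or day 7 in edgeR, where 0.246% and 0.493% of genes did, and 3 and 1 of them had an unadjusted p under 0.05.

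**Figure D2:**
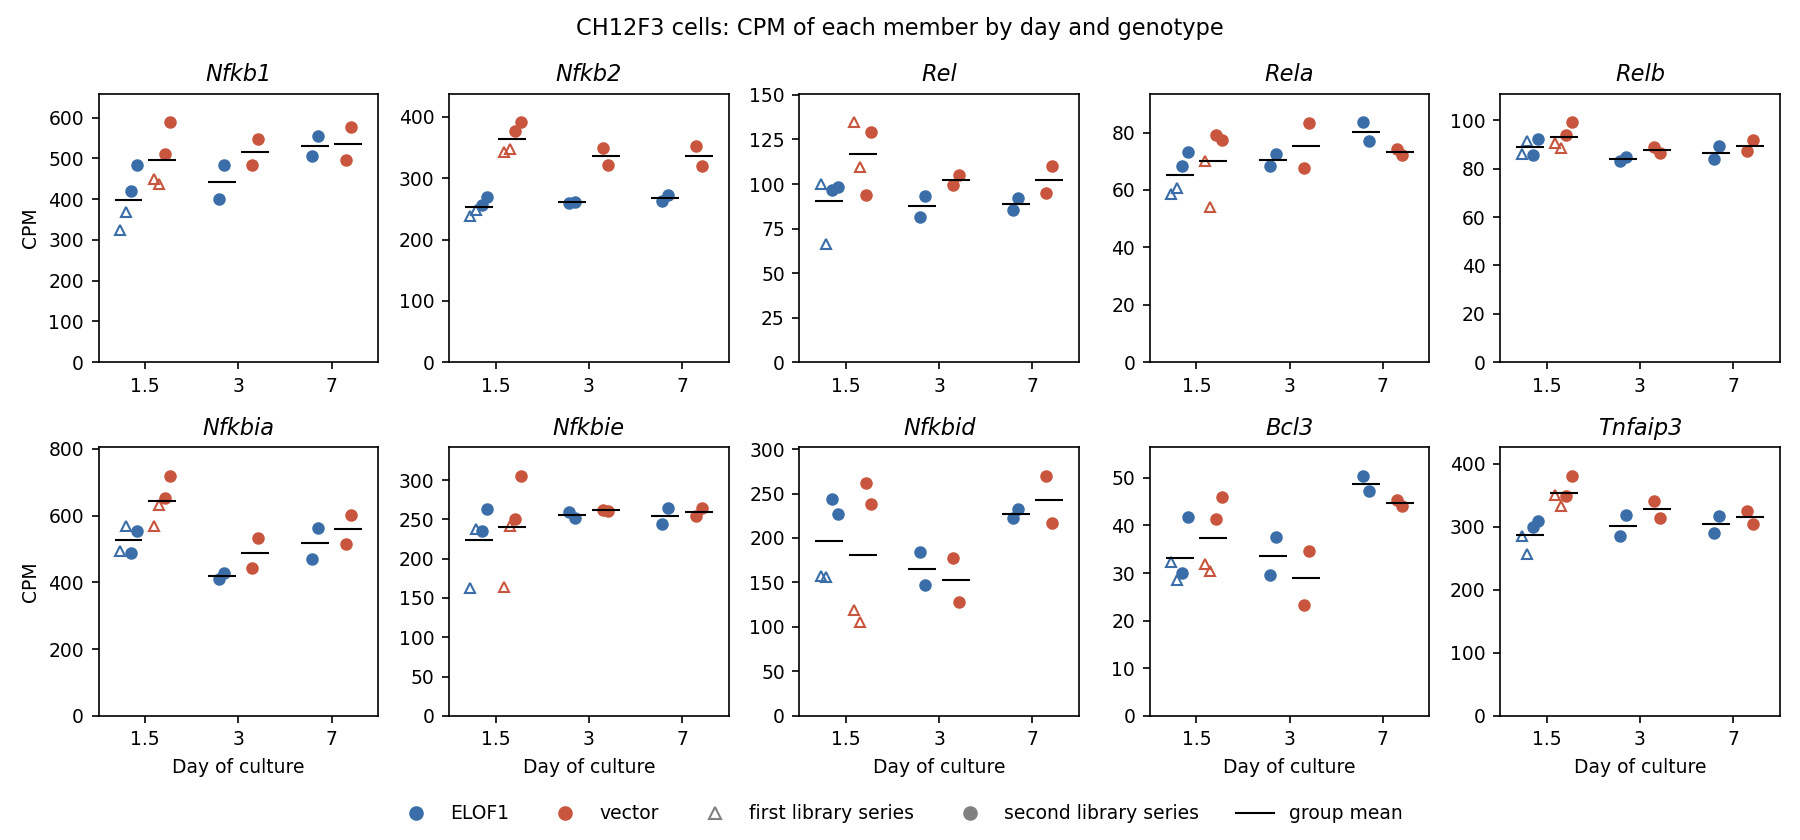
CPM of each member in CH12F3 cells by day of culture, 1 panel per gene with an axis from 0; blue is ELOF1, red is vector, open triangles are the first and filled circles the second library series, and lines are group means. Nfkb2 is higher in vector than in ELOF1 libraries on all 3 days (364 against 253 CPM on average at day 1.5), while Nfkbid at day 1.5 splits by library series.

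Counting members whose groups did not overlap gave 2 higher (Nfkb2 and Tnfaip3) and 0 lower at day 1.5, against 3.71% of all genes in either direction. At day 3, with 2 libraries against 2, 6 members were higher and 0 lower (Nfkb1, Nfkb2, Rel, Relb, Nfkbia and Nfkbie), where 32.4% of all genes did not overlap. At day 7 Nfkb2 and Rel were higher and Rela and Bcl3 lower, where 32.8% of all genes did not overlap. The median difference over the 10 members was 0.22 at day 1.5, 0.11 at day 3 and 0.05 at day 7, beside 0.01, -0.00099 and 0.01 over all genes tested. The genotype effect at day 3 or day 7 minus that at day 1.5 passed for 0 members and 0 of 14201 genes in edgeR. Of the members, 0 had an unadjusted p under 0.05 in those differences, and DESeq2 called 0.

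In spleen cells another member moved. Nfkbid (chromosome 7, 30421732 to 30428746, plus strand, mm10, ENSMUSG00000036931) rose without ELOF1. At day 2.5 the 5 cKO libraries, replicates 1 to 5, were at 48.5, 51.8, 50.1, 55.9 and 26.3 CPM and the 5 WT libraries at 30.2, 39.3, 29.8, 28.8 and 16.6 CPM. In 4 of 5 cKO libraries Nfkbid was above every WT library, and cKO replicate 5 fell among the WT libraries. At day 3.5 the 3 cKO libraries were at 38.0, 46.6 and 42.3 CPM and the 3 WT libraries at 26.0, 25.9 and 21.9 CPM, with no overlap.

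The Nfkbid difference was 0.70 ± 0.18 at day 2.5 (adjusted p = 0.033; 5.18% of 13367 genes passed) and 0.78 ± 0.23 at day 3.5 (adjusted p = 0.10; 2.07% passed). For the mean of both days it was 0.74 ± 0.15 (adjusted p = 0.0037), where 10.9% of genes passed, and this call held in 16 of 16 fits that left out 1 library (0.63 to 0.80). The day 2.5 call was less firm. It was lost in 7 of 10 fits that left out 1 library, those without cKO replicate 1, 2, 3 or 4 or WT replicate 1, 3 or 5 (adjusted p = 0.056 to 0.084). In the second library series alone, without replicates 4 and 5, it was 0.60 (adjusted p = 0.0028), and in the first alone 0.84 (1). Scaled to the fly RNA, the mean of days was 0.53 (adjusted p = 0.059), beside a median of all genes of -0.21. DESeq2 called Nfkbid at day 3.5 (adjusted p = 0.034). Fitted to the compared libraries alone, edgeR called it at day 3.5 (0.0017) and not at day 2.5 (0.12).

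Bcl3 encodes the other nuclear inhibitor-like protein, which can act with the mature Nfkb1 and Nfkb2 subunits as a co-activator. Its day 2.5 cKO libraries were at 147.5, 163, 179, 198 and 60.8 CPM and its WT libraries at 116, 127, 121, 121 and 50.6 CPM. Replicate 5 of either genotype was by far the lowest, and the 4 other cKO libraries lay above all WT libraries. At day 3.5 Bcl3 was at 126, 116 and 102.5 CPM in cKO and at 87.9, 90.5 and 97.2 CPM in WT libraries, again without overlap. The difference for the mean of days was 0.41 ± 0.20 and did not pass (adjusted p = 0.23). At day 2.5 it was 0.49 ± 0.24 (adjusted p = 0.31) over all libraries, 0.68 (0.044) without cKO replicate 5 and 0.43 (0.0034) in the second library series alone. Same-numbered spleen libraries of day 2.5 deviated together as counted (r 0.28 to 0.80). With the library series removed, replicates 4 and 5 still did (r 0.65 each), while replicates 1 to 3 did not (r -0.27 to 0.03). Same-numbered libraries of day 3.5 did not deviate together (r -0.28 to 0.07). With the replicate number as a block Bcl3 passed at day 2.5 (0.45, adjusted p = 0.0014) and for the mean of days (0.39, 0.00048). The block called 3 members at day 2.5 (Nfkbid, Bcl3 and Nfkb1), 2 at day 3.5 (Nfkbid and Nfkbie) and 5 for the mean of days (those 4 and Tnfaip3), where 11.5%, 6.21% and 19.2% of genes passed.

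Nfkbie (chromosome 17, 45555716 to 45563169, plus strand, mm10, ENSMUSG00000023947), a cytoplasmic inhibitor gene, fell in cKO spleen cells. At day 3.5 it was at 105, 99.1 and 97.3 CPM in cKO and at 122, 128 and 133 CPM in WT libraries, and the groups did not overlap. At day 2.5 the cKO libraries were at 89.1, 94.5, 101, 67.3 and 54.4 CPM and the WT libraries at 117, 105, 113, 77.2 and 55.4 CPM. In the second library series (replicates 1 to 3) all cKO libraries were below all WT libraries, and the first series overlapped. The mean of days was -0.27 ± 0.07 (adjusted p = 0.025), and -0.48 (0.039) when scaled to the fly RNA, beside a median of all genes of -0.21. The call was lost without cKO day 3.5 replicate 2 or 3 or WT day 3.5 replicate 2 or 3 (adjusted p = 0.051 to 0.079), and without the library series term (0.43).

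Nfkb1 stood at the edge of the threshold in spleen cells. It was at 1183, 1144, 1095, 1082 and 917 CPM in cKO and at 1378, 1223, 1406, 1226 and 1078 CPM in WT libraries at day 2.5. At day 3.5 it was at 1261, 1178 and 1231 CPM in cKO and at 1355, 1376 and 1354 CPM in WT libraries. Every day 3.5 cKO library was below every WT library, and WT replicate 5 at day 2.5 fell among the cKO libraries. The mean of days was -0.19 ± 0.06 (edgeR adjusted p = 0.052, or 0.014 with the replicate block; DESeq2 0.0053).

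The remaining members differed little by genotype in spleen cells. Nfkb2 ranged from 246 to 355 CPM in cKO and from 239 to 388 CPM in WT libraries (-0.10 ± 0.06 for the mean of days, adjusted p = 0.28), Rel from 97.4 to 169 and from 86.2 to 169 CPM (0.07 ± 0.09), Rela from 70.6 to 147 and from 69.2 to 135.1 CPM (0.06 ± 0.06), and Relb from 54.8 to 84.9 and from 58.4 to 95.4 CPM (-0.03 ± 0.06). Nfkbia was at 115 to 196 CPM in cKO and 127 to 194 CPM in WT libraries (0.04 ± 0.10). Tnfaip3 was at 232 to 312 CPM in cKO and 204 to 336 CPM in WT libraries (0.17 ± 0.09, adjusted p = 0.30), and its day 3.5 libraries did not overlap, at 304, 312 and 281 CPM in cKO against 247, 236 and 261 CPM in WT. In all, 0 members did not overlap at day 2.5, where 3.12% of all genes did not. At day 3.5, 3 were higher (Nfkbid, Bcl3 and Tnfaip3) and 2 lower (Nfkb1 and Nfkbie) without overlap, where 25.1% of all genes did not overlap. The call count at day 3.5 was 0 of 10 in edgeR, with 2 at an unadjusted p under 0.05, and 1 in DESeq2.

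**Figure D3:**
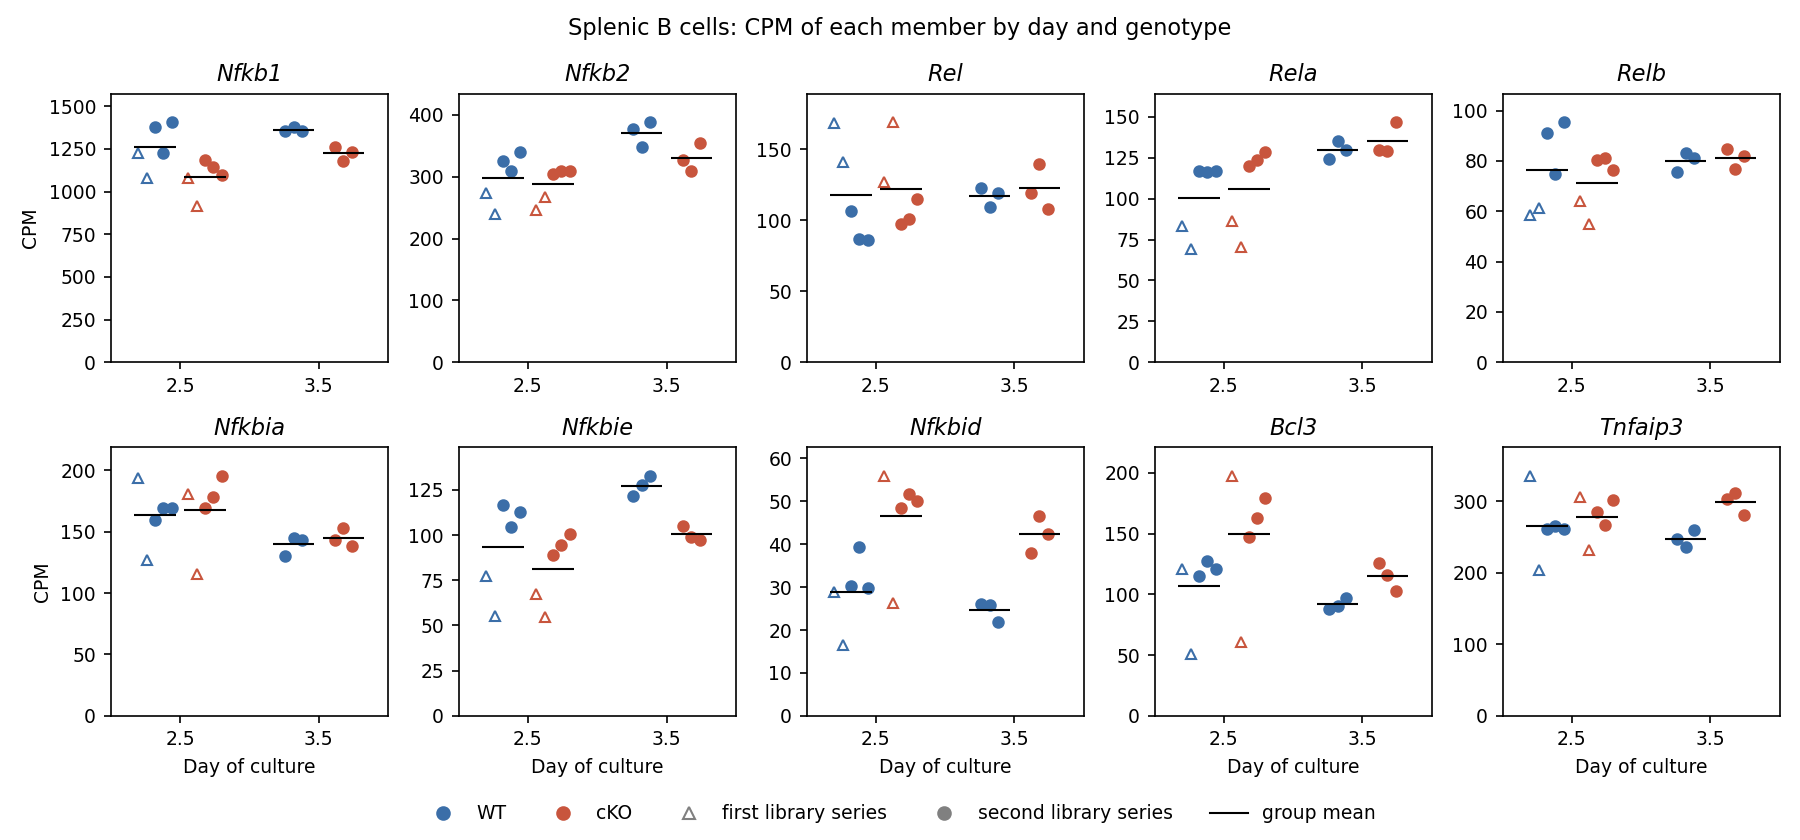
CPM of each member in splenic B cells by day of culture, 1 panel per gene with an axis from 0; blue is WT, red is cKO, open triangles are the first and filled circles the second library series, and lines are group means. Nfkbid means are 46.5 against 28.9 CPM at day 2.5 and 42.3 against 24.6 CPM at day 3.5, and the lowest triangle of Bcl3 and Nfkbid in each genotype is replicate 5.

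The difference between the systems was tested directly, as the mean genotype effect in spleen cells minus that in CH12F3 cells, in 1 fit over 15310 genes of which 2.33% passed. Of the 10 members 3 passed, Nfkb2 at -0.51 ± 0.07 (adjusted p = 0.00011), Nfkb1 at -0.37 ± 0.09 (0.022) and Nfkbid at 0.82 ± 0.19 (0.014). The effect of Nfkb2 was 0.41 in CH12F3 cells, where it passed, and -0.10 in spleen cells, where it did not. That of Nfkb1 was 0.19 and -0.19, and neither passed by itself. That of Nfkbid was -0.07 in CH12F3 cells, where it did not pass, and 0.74 in spleen cells, where it did. The Nfkb2 and Nfkbid calls held in 32 of 32 fits that left out 1 library. The Nfkb1 call was lost in 4 of 32 (without ELOF1 day 3 replicate 1, ELOF1 day 7 replicate 1, vector day 3 replicate 2 or vector day 7 replicate 2; adjusted p = 0.055 to 0.070), and also without the filter on low counts (0.075) and without the library series term (0.30). Scaled to the fly RNA, 0 of the 3 passed, at -0.59 (adjusted p = 0.23), -0.45 (0.63) and 0.75 (0.13), and 3 members had an unadjusted p under 0.05. With the replicate block, Bcl3 (0.45, adjusted p = 0.003) and Nfkbie (-0.31, 0.0052) passed as well, where 6.97% of genes passed. The systems differ in stimulus, in the kind of knockout and in origin, which cannot be told apart here.

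**Figure D4:**
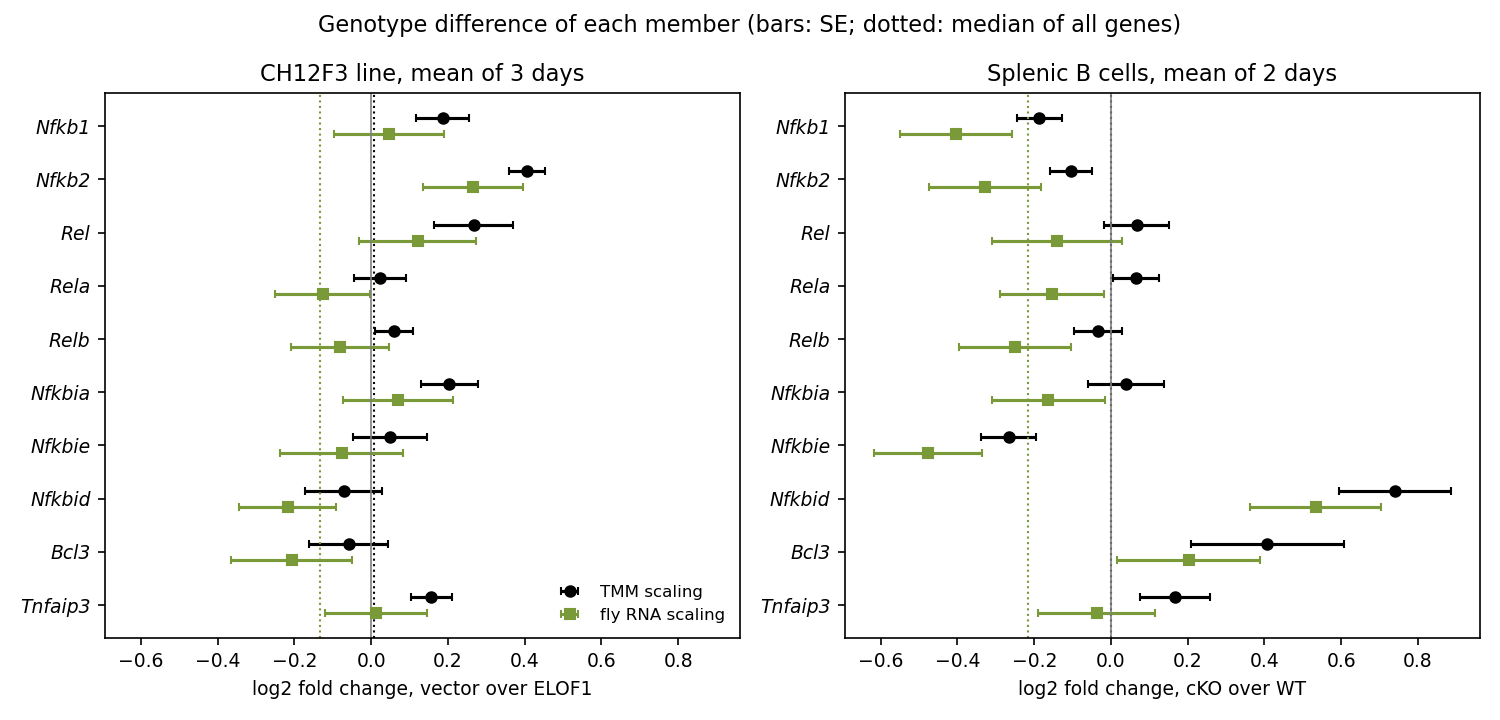
Log2 fold change without ELOF1, as the mean of days, for each member in CH12F3 (left) and spleen cells (right); points with bars are the estimate and its SE with TMM scaling (black) and with scaling to the added fly RNA (green), and dotted lines are the medians of all genes. With TMM scaling Nfkb2 stands at 0.41 in CH12F3 cells and Nfkbid at 0.74 and Nfkbie at -0.27 in spleen cells; fly scaling shifts all members toward lower values, with the all-gene median at -0.13 and -0.21.

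Over days of culture no member passed the test within a genotype in DESeq2 or in edgeR with the filter and without a block. In CH12F3 cells the estimates for day 3 over day 1.5 were positive for 2 of 10 members in ELOF1 and 0 of 10 in vector cells. The member medians were -0.049 and -0.18, beside 0.0040 and -0.010 over all genes. The inhibitor genes Nfkbid, Nfkbia and Bcl3 were among the members with lower estimates at day 3 in both arms. Nfkbid was at -0.66 ± 0.18 in ELOF1 and -0.58 ± 0.18 in vector cells (adjusted p = 0.80 and 0.50), and Nfkbia at -0.37 ± 0.13 and -0.44 ± 0.13 (1 and 0.50). Bcl3 was at -0.15 ± 0.18 and -0.53 ± 0.18 (1 and 0.62). In ELOF1 cells the Bcl3 estimate was smaller than its SE, with group means of 33.2 CPM at day 1.5 and 33.6 CPM at day 3. The Nfkbid estimates were adjusted for library series. Its day 3 libraries, all of the second series, were at 146.9 and 184.0 CPM in ELOF1 and 127.6 and 177.2 CPM in vector cells. They lay below the second-series day 1.5 libraries of their genotype. Against the first series, both vector libraries lay above both day 1.5 libraries (105.7 and 118.9 CPM). The ELOF1 libraries lay on either side of theirs (155.9 and 157.4 CPM). Both Nfkbia day 3 libraries of each genotype (409 and 429 CPM in ELOF1, 443 and 532 CPM in vector cells) lay below all 4 day 1.5 libraries. By day 7 Nfkbia was at 471 and 564 CPM in ELOF1 and at 515 and 602 CPM in vector cells, so 1 library of each genotype was still below the day 1.5 range. For day 3 against day 1.5, the edgeR p before adjustment was under 0.05 for 2 (ELOF1) and 4 (vector) members, and for day 7 for 0 and 1, and the shares of all genes that passed were 0.00704%, 0.00704%, 0.0493% and 0.169% in that order. Without the filter on low counts, and with the library series term kept, Nfkbid passed at day 3 in both arms. The edgeR adjusted p was 0.0035 in ELOF1 and 0.0087 in vector cells, where 0.265% and 0.559% of genes passed.

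In spleen cells the day 3.5 over day 2.5 differences of Rel were 0.29 ± 0.13 in WT and 0.28 ± 0.13 in cKO cells (adjusted p = 0.24 and 0.30), and those of Bcl3 -0.37 ± 0.30 and -0.54 ± 0.30 (0.58 and 0.42). Nfkb2 was at 0.21 ± 0.08 in WT cells (adjusted p = 0.19) and 0.09 ± 0.08 in cKO cells. Of the members 0 passed in edgeR, where 5.45% (WT) and 3.40% (cKO) of genes did, with 2 and 1 at an unadjusted p under 0.05. With the replicate block Bcl3 (-0.40), Nfkbid (-0.43) and Nfkbia (-0.25) fell and Rel (0.34) rose in WT cells, and Bcl3 (-0.51) and Nfkbia (-0.32) fell in cKO cells, where 15.7% and 13.3% of genes passed. Bcl3 also fell in cKO cells without the filter (-0.54, adjusted p = 0.0015; 3.64% of genes passed). The genotype effect at day 3.5 minus that at day 2.5 was 0.09 ± 0.29 for Nfkbid and passed for 0 members and 0 of 13367 genes in edgeR and for 0 members in DESeq2, with 0 members at an unadjusted p under 0.05.

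Other genes of the pathway were counted by their role. Of 10 tested receptors that feed into NF-kB, 0 passed in CH12F3 cells for the mean of days (median 0.15, beside 0.0085 over all genes), where 2.80% of all genes passed. In spleen cells 4 of 9 passed, all higher, where 10.9% of all genes passed, with a median of 0.081 beside 0.00076. Cd40, the receptor for T cell help and the target of the antibody used on CH12F3 cells, rose in cKO cells by 0.38 ± 0.07 at day 2.5 (141 ± 15.2 against 109 ± 17.2 CPM, SD, n = 5 each) and 0.73 ± 0.10 at day 3.5 (163 ± 10.02 against 98.3 ± 10.3 CPM, n = 3 each), with edgeR adjusted p = 0.0066 and 0.001. The others were Tnfrsf13c, the receptor for the survival factor BAFF (0.33 ± 0.06), the DNA sensor Tlr9 (0.50 ± 0.13) and the TNF receptor gene Tnfrsf1b (0.25 ± 0.07). Scaled to the fly RNA 0 of 9 passed in spleen cells, where 6.17% of all genes passed. Their median was then -0.082, beside -0.21 over all genes. With the replicate block 5 of 10 receptors passed in CH12F3 cells, 3 higher and 2 lower, where 13.2% of all genes passed for the mean of days.

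Of 30 upstream adaptors and kinases, 1 rose and 1 fell in CH12F3 cells at day 1.5, where 1.15% of all genes passed. Map3k14, the kinase gene of the non-canonical route, rose by 0.43 ± 0.09 (51.5 ± 11.8 against 37.9 ± 7.56 CPM, SD, n = 4 each, adjusted p = 0.032), and Tab1, which encodes a partner of the kinase TAK1, fell (-0.59 ± 0.11, 18.1 ± 0.858 against 27.4 ± 4.24 CPM, adjusted p = 0.024). In spleen cells 4 rose and 2 fell for the mean of days, where 10.9% of all genes passed. Those that rose were Birc2, a ubiquitin ligase of the receptor complexes (0.64 ± 0.07), Ikbkb, a canonical kinase subunit (0.27 ± 0.05), Malt1 (0.28 ± 0.07) and Birc3 (0.19 ± 0.05). Those that fell, named after their values were seen, were Prkcb, a kinase of antigen receptor signalling (-0.48 ± 0.14), and Chuk, the other catalytic subunit of that kinase complex (-0.19 ± 0.06). The 30 had a median of 0.058, beside 0.00076 over all genes. With fly scaling 0 of them rose and 2 fell, with a median of -0.16 beside -0.21 over all genes, of which 6.17% passed. Of 20 further inhibitors, Commd1 fell in both systems for the mean of days, by -0.58 ± 0.11 in CH12F3 cells (adjusted p = 0.017) and -0.63 ± 0.11 in spleen cells (0.0017). It was the 1 of 20 to pass in CH12F3 cells (2.80% of all genes), and in spleen cells the deubiquitinase gene Cyld (0.24 ± 0.06) and Traf1 (0.24 ± 0.07) rose, so 3 of 20 passed (10.9% of all genes).

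NF-kB target genes, as listed from textbooks, went different ways in the 2 systems. In CH12F3 cells at day 1.5, 7 of 34 rose and 0 fell, with a median of 0.44 beside 0.01 over all genes, of which 1.15% passed. The 4 with the smallest adjusted p were Stat5a (0.97 ± 0.15, 195 ± 34.8 against 98.9 ± 15.6 CPM), the chemokine gene Ccl22 (0.68 ± 0.12), the stress response gene Gadd45b (0.88 ± 0.15) and Irf4 (0.50 ± 0.10), with adjusted p = 0.0078, 0.016, 0.016 and 0.027. The Stat5a groups did not overlap. Those of Ccl22 (4317 ± 1055 against 2787 ± 1036 CPM), Gadd45b (67.4 ± 16.4 against 37.5 ± 14.8) and Irf4 (415 ± 116 against 298 ± 100) did. Scaled to the fly RNA 0 of 34 passed, with a median of 0.35 beside -0.078 over all genes, of which 0.317% passed. In spleen cells at day 2.5, 1 of 33 rose and 6 fell, with a median of -0.04 beside 0.0042 over all genes, of which 5.18% passed. With fly scaling 0 rose and 1 fell, where 0.696% of all genes passed. Cd86, a costimulatory ligand, rose (0.66 ± 0.13, 109 ± 20.996 against 69.3 ± 22.7 CPM), and Cd44 (-0.49 ± 0.09), Irf4 (-0.47 ± 0.10) and Ccl22 (-0.85 ± 0.19) fell. The effects of 10 of 35 target genes differed between the systems, against 2.33% of all genes, all of them lower in spleen cells, among them Irf4 (-0.77 ± 0.11, adjusted p = 0.0001), Cd44 (-0.66 ± 0.11), Cflar (-0.61 ± 0.11) and Bcl2l1 (-0.81 ± 0.15).

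Marker genes of other cell states moved beside these results. In CH12F3 cells at day 1.5 the summed CPM of 5 plasma cell markers was 148 to 420 in vector and 378 to 486 in ELOF1 libraries, with Prdm1 the 1 of 3 tested to pass (lower), and Sdc1 and Tnfrsf17 at or near 0 (at most 5 counts in a library). The summed CPM of 5 dendritic cell markers at day 1.5 was 50.3 to 62.9 in vector and 31.6 to 47.1 in ELOF1 libraries, without overlap; of 3 tested 0 passed at day 1.5 and Flt3 (higher) for the mean of days. The summed myeloid markers were at 47.0 to 104 CPM in vector and 55.3 to 78.0 CPM in ELOF1 libraries at day 1.5. At day 7 they were at 136 to 235 CPM in vector and 125 to 174 CPM in ELOF1 libraries. In CH12F3 cells this sum came mostly from Adgre1 (41 to 2860 counts) and Csf1r (255 to 698 counts). In spleen cells the summed CPM of 5 dendritic cell markers was 12.2 to 24.4 in cKO and 21.9 to 67.8 in WT libraries at day 2.5, with both tested genes (Zbtb46 and Flt3) lower, and Itgax and Siglech at most 9 counts. The summed CPM of 9 T and NK cell markers was 12.4 to 24.0 in cKO and 19.2 to 36.5 in WT libraries at day 2.5, nearly all of it Lck, which passed (lower). The summed myeloid markers were at 5.16 to 12.7 CPM in cKO and 2.72 to 18.2 CPM in WT spleen libraries at day 2.5 and at 6.62 to 13.7 and 3.55 to 6.69 CPM at day 3.5. Of 3 tested in spleen cells, Itgam passed (higher) for the mean of days, and Csf1r was at most 7 counts in a spleen library. The part of these markers in the differences of the members was not tested.

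The genes whose log2 CPM followed a member most closely over the 16 libraries of a system, after removal of the library series, are given as a description. They share libraries and depth with it, and the genotype groups enter the correlation. For Nfkb2 in CH12F3 cells they were Gpr183, Ifi30 and Marcksl1 (Pearson r 0.93, 0.93 and 0.92, among 9310 genes), and in spleen cells Phlpp1, Naa40 and Dcbld2 (0.88, 0.85 and 0.85, among 8988 genes). For Nfkbid they were Zc3h12a, Gmpr2 and Cd72 in CH12F3 cells (0.89, 0.88 and 0.87) and Sbno2, Chst11 and St3gal1 in spleen cells (0.96, 0.95 and 0.94). For Nfkbia they were Sh2b2, Def6 and Themis2 (0.96, 0.93 and 0.91), and Tnfaip8, Kif21b and Cxcr5 (0.94, 0.94 and 0.93). For these 3 members none of the closest genes was shared between the systems. The 3 closest of 9310 and 8988 genes are too few to compare the systems by, and no conclusion is drawn.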

How the data were processed

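RNA was measured in 32 libraries after rRNA depletion and strand-specific preparation, per the labels' protocols. The submitters' processing notes name Bowtie2 and featureCounts with mm10 and dm6; no source used here gives versions or says whether gene counting used the strand. The deposited tables hold raw counts for 60854 genes (43345 mouse, 17509 fly). Mouse genes without a symbol held up to 0.470% of counts and stayed in the fits; 0 columns lay outside the series. Fly RNA was added per cell number and served only as an alternative scaling.

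Counts were fitted with edgeR 4.0.16 (R 4.3.3; quasi-likelihood test, TMM scaling, filterByExpr with minimum count 10), 1 fit per system with terms for group and library series, and Benjamini-Hochberg adjustment over all genes tested at 0.05. The fits were also run on simulated counts. Those counts held no library series effect and no shared deviation of same-numbered libraries, so that run cannot speak to either. The alternatives were RLE and fly scaling, DESeq2 1.42.0, no filter, no series term, compared groups or 1 library series only, a replicate block, and each library left out. Same-numbered CH12F3 libraries deviated together at day 1.5 (r 0.64 to 0.67, or 0.17 to 0.26 with the library series removed). Their own number was the best match for 8 of 8 libraries as counted and for 5 of 8 with the series removed. At days 3 and 7 the 2 libraries of a group deviate as mirror images, so each day gave a single r (0.50 and 0.34). The block is given beside the CH12F3 results, and beside spleen results where it changes a call.

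The members and lists were chosen with earlier results of these data known. Every member is described. Of other lists of the pathway, at most 4 genes per comparison are named, by smallest adjusted p. Prkcb and Chuk are the exception and were named after their values were seen. For likeness, genes whose log2 CPM averaged 3 or more were ranked by Pearson r.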

Additional observations from a re-analysis of the deposited data

Results flagged for a closer look

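In 3 of 40 groups of a member, 1 library stood apart from the rest of its group of 4 or 5, beyond Dixon's critical value; chance gives about 1 in 20. Bcl3 in WT spleen cells at day 2.5 was at 50.6 CPM in replicate 5, while the others were at 115.5 to 127 CPM. Nfkbid in cKO spleen cells at day 2.5 was at 26.3 CPM in replicate 5, while the others were at 48.5 to 55.9 CPM. Rel in CH12F3 ELOF1 cells at day 1.5 was at 66.1 CPM in replicate 2, while the others were at 96.9 to 100.2 CPM.

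The genotype effect differed between the systems (spleen minus CH12F3, log2) in the edgeR test of the difference over 15310 genes. It was -0.37 for Nfkb1, -0.51 for Nfkb2 and 0.82 for Nfkbid.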

How the results depend on the processing

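RLE scaling changed no call. The number of members called moved by more than 1.5-fold, or to or from 0, as follows, and the cause was not tested. Smaller moves are not all listed. Among them, the spleen mean had 3 (from 2) with DESeq2, where Nfkb1 joined, and without the filter, where Bcl3 joined (13.7% and 6.84% of genes). Between systems it stayed at 3 without the filter, with Bcl3 in place of Nfkb1 (2.42%). With DESeq2 it was 3 (from 1) at CH12F3 day 1.5, 1 (from 0) at days 3 and 7, 2 (from 1) at spleen day 2.5 and 1 (from 0) at day 3.5, where 3.15%, 0.0915%, 0.19%, 7.73% and 4.29% of genes passed. With fly scaling it was 0 at CH12F3 day 1.5, CH12F3 mean of days and spleen day 2.5 (from 1 each), 1 (from 2) for the spleen mean and 0 (from 3) between systems, where 0.317%, 1.49%, 0.696%, 6.17% and 0.614% passed. In the first library series it was 0 at CH12F3 day 1.5 and spleen day 2.5 (0.403% and 0% of genes), and in the second 0 and 2 (0% and 8.99%). Without the filter it was 3, 2, 1 and 2 for CH12F3 day 1.5, spleen day 2.5, spleen day 3.5 and the CH12F3 mean, and 1 (from 0) for day 3 over 1.5 in ELOF1 and in vector cells and for spleen cKO day 3.5 over 2.5, where 3.04%, 3.76%, 2.21%, 4.29%, 0.265%, 0.559% and 3.64% passed. Without the series term it was 0 at spleen day 2.5, 1 for the spleen mean and 1 between systems (1.52%, 4.86% and 0.692%). With only the compared groups it was 0 at spleen day 2.5 and 2 at day 3.5 (2.8% and 6.93%). With one library left out it was 0 to 2 at spleen day 2.5 and 1 to 3 for the spleen mean. With the replicate block it was 5 at CH12F3 day 1.5 and its mean, 5 between systems, 3 at spleen day 2.5, 2 at day 3.5, 5 for the spleen mean, and 4 (WT) and 2 (cKO) over spleen days (8.6%, 13.2%, 6.97%, 11.5%, 6.21%, 19.2%, 15.7% and 13.3%). Same-numbered spleen libraries did not pair at day 3.5 (r 0.07, -0.28 and -0.12). At day 2.5 they paired with the library series left in. With it removed, replicates 4 and 5 still paired (r 0.65 each) and replicates 1 to 3 did not (r 0.03, -0.27 and -0.18). Their own number was the best match for 4 of 10 libraries at day 2.5 and 1 of 6 at day 3.5, with the series left in or removed. Of 2910 values of members under an alternative, 195 had the other sign, none of them for a value called in the first place: 138 had moved by at most 1 SE without a call, and the 57 that had moved by more, or with a call, are as follows; the cause was not tested. With fly scaling they were: CH12F3 day 1.5, Relb -0.025 and Rela -0.012; day 3, Relb -0.12, Tnfaip3 -0.071, Nfkbie -0.15 and Rela -0.086; day 7, Nfkb1 -0.13, Relb -0.096, Tnfaip3 -0.096 and Nfkbia -0.031; mean, Relb -0.081, Nfkbie -0.076 and Rela -0.13; spleen day 2.5, Tnfaip3 -0.069, Rel -0.074, Nfkbia -0.12 and Rela -0.074; day 3.5, Relb -0.26, Tnfaip3 -0.0064, Rel -0.21, Nfkbia -0.21 and Rela -0.23; mean, Tnfaip3 -0.038, Rel -0.14, Nfkbia -0.16 and Rela -0.15; cKO day 3.5 over 2.5, Nfkb1 -0.14, Relb -0.22, Tnfaip3 -0.12, Nfkbie -0.16, Rela -0.10 and Nfkb2 -0.15; spleen effect of day 3.5 minus 2.5, Nfkb1 -0.085 and Relb -0.025. In the first series, Relb was -0.00999 at CH12F3 day 1.5, and Rel -0.078 and Nfkbia -0.13 at spleen day 2.5; in the second, Nfkbid was 0.082 at CH12F3 day 1.5. Without the series term, ELOF1 day 3 over 1.5 gave Nfkb1 0.14 and Rela 0.11, ELOF1 day 7 over 1.5 Nfkbid 0.21 and Nfkbie 0.18, vector day 3 over 1.5 Nfkb1 0.055, Nfkbie 0.12 and Rela 0.10, vector day 7 over 1.5 Nfkb1 0.11, Nfkbie 0.11 and Rela 0.058, and WT day 3.5 over 2.5 Relb 0.0700 and Rel -0.0059. With one library left out, CH12F3 day 3 gave Bcl3 -0.51 to 0.030, Nfkbid -0.38 to 0.11 and Rela -0.046 to 0.23, day 3 over 1.5 gave Nfkb1 -0.16 to 0.11 (ELOF1) and Rela -0.17 to 0.11 (vector), ELOF1 day 7 over 1.5 gave Nfkbia -0.20 to 0.066, and the CH12F3 effect of day 3 minus 1.5 gave Nfkbid -0.18 to 0.32. Of the rest, 2635 kept their direction and side of the threshold, 49 passed it newly and 31 no longer passed. Groups of 2 libraries limit days 3 and 7.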
